A study of Homo sapiens with 4 samples.

Results

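FABP7 and its relatives among the fatty acid binding proteins were examined in neuroblastoma cells with and without a hairpin against METTL14. The 5 genes described, FABP7, FABP3, FABP5, FABP6 and PMP2, were found by their symbols among 60671 gene rows. They were chosen from their measured values in this same comparison, so those values are given as a description and carry no test. A gene with 3 counts or fewer in both libraries of a group was treated as at the floor.

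The cells were SK-N-BE(2), a long-established line from a human neuroblastoma that carries extra copies of MYCN. One group carried a control hairpin (shNC) and the other a hairpin against METTL14 (shMETTL14), a subunit of the enzyme that writes N6-methyladenosine (m6A) on RNA, with 2 libraries in each. In the study's methods, hairpins were delivered with the lentiviral vector pLKO.1 into cells kept under puromycin, and both groups shared this treatment. The methods list 2 METTL14 hairpins, the labels do not say which was used, and nothing says that the libraries of a group came from separate cultures, so the spread between them may be technical.

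Fatty acid binding proteins are small cytoplasmic carriers whose barrel-shaped fold encloses a fatty acid or a related lipid and brings it to membranes, mitochondria or nuclear receptors. FABP7, the brain type, is known from radial glia and astrocytes, whereas PMP2 is the myelin P2 protein of Schwann cells. FABP5, the epidermal type, is widely expressed and can hand fatty acids to the nuclear receptor PPARD, FABP3 is the heart and muscle type, and FABP6 binds bile acids in the ileum.

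Gene counts per library ranged from 18925786 to 19886214. METTL14 had 753 and 754 counts in the shNC libraries and 303 and 321 in the shMETTL14 libraries (log2 fold change -1.26, SE 0.0832, adjusted p = 3.6e-11, edgeR). All 8 neuroblastoma markers were detected (2 rose and 6 fell), with a summed level between 4771 and 5022 CPM, the count scaled to the size of the library. METTL14 knockdown was accompanied by broad change: 52.5% of 16309 genes tested passed an adjusted p of 0.05, and the groups did not overlap for 75.5%.

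The m6A consensus core GGACT occurs 1 time in the FABP7 transcript and 1 time in the FABP6 transcript, in the coding part of exon 2 in both, and does not occur in the transcripts of FABP3 and FABP5. The sites are shown because the knocked-down enzyme writes m6A in this context, with the core in capitals and the gene's strand read 5′ to 3′ (GENCODE 29, GRCh38).
FABP7, chr6:122780363-122780391 (+): aagtggtcatcaGGACTctcagcacattc
FABP6, chr5:160232156-160232184 (+): gcaggatgggcaGGACTtcacttggtccc
The same 5 letters were found in 90.8% of 8915 transcripts, with a median of 0.93 copies per kilobase against 0.975 in FABP7 and 1.75 in FABP6. A match is not evidence of methylation, which these libraries did not measure.

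The promoter window of FABP7 (chr6:122779466-122779765, GRCh38.p14, plus strand), which spans the RefSeq start site at base 122779716, held 3 matches to the CCAAT box, on either strand. Their first bases lay 211, 168 and 153 bases before the start site. The stretch with the pair nearest to the start site is shown because it is where the matches stand closest together, with matches in capitals, the first on the plus strand and the second on the minus strand.
FABP7, chr6:122779543-122779572 (+): ctgagCCAATcacaaagaggATTGGagcct
CCAAT matches, in any number, were found in 34.6% of 35116 RefSeq promoters, and in neither of the FABP3 and FABP6 windows. The share of promoters with 3 matches was not counted, and matches were not counted for FABP5 and PMP2. The GENCODE transcript of FABP7 starts upstream of the RefSeq site, at base 122779475, so in that model this stretch lies within the first exon. The same holds for nearly all of the window, and bases upstream of the window were not searched. FABP7's window had no match, on either strand, to the nuclear factor I core TTGGCA or the full palindromic nuclear factor I site, to the POU octamer ATGCAAAT, the RBPJ site GTGGGAA or the E-box CACGTG. Nor did it match the TATA box TATAAA, the GC box with letters GGGCGG or the PPAR direct repeat. The share of promoters with a match ranged from 0.0228% for the PPAR repeat to 45% for GGGCGG. With 52.7% G and C, the window was below the median promoter (58.7%).

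FABP7 RNA was at the floor in both shMETTL14 libraries. The gene (ENSG00000164434, chr6:122779475-122784074, plus strand) had 301 and 329 counts in shNC libraries 1 and 2, and 3 counts in each shMETTL14 library. In CPM this was 15.1 and 17.2 against 0.153 and 0.156, or 16.1 ± 1.47 against 0.155 ± 0.00188 (SD, n = 2 each). The groups were far apart, and both shMETTL14 libraries sat at the level of 3 counts. The summed counts, 630 against 6, gave a ratio of 104-fold with an exact 95% interval from 47.7 to 285, which covers counting error only. In bulk RNA, fewer cells that express FABP7 and less FABP7 RNA per cell cannot be told apart.

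Because FABP7 is a glial gene, a list of 11 glial markers was read beside it. Of these, 5 were tested, 0 rose and 2 fell, where 27.2% of all genes tested rose and 25.3% fell. SLC1A3, a glutamate transporter of astrocytes, fell from 611 and 618 counts to 327 and 364 (log2 fold change -0.82, SE 0.0875, adjusted p = 6.7e-08, edgeR). S100B, a calcium-binding protein of glia, fell from 70 and 59 counts to 33 and 50 (-0.62, adjusted p = 0.0483, edgeR). That call was lost with DESeq2, with no filter on counts, and when either shNC library or shMETTL14 library 1 was left out. The summed level of the list was 38.4 to 39.3 CPM in shNC and 22.9 to 26.1 CPM in shMETTL14. Most of that sum was SLC1A3, at a mean of 31.5 CPM in shNC and 17.8 CPM in shMETTL14, so the lower sum is largely that of this gene. SOX10, which defines Schwann cells and their precursors, and HOPX were at 0 in all 4 libraries. Of 6 mesenchymal markers, all tested, 1 rose and 3 fell beside the same shares, with a summed level of 438 to 440.1 CPM in shNC and 413 to 422 CPM in shMETTL14. The part of these markers in the FABP7 difference was not tested.

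FABP5 was the most abundant of the 5 genes in every library. It had 2117 and 2069 counts in shNC and 2456 and 2483 in shMETTL14, which is 107 ± 1.3 against 127 ± 2.53 CPM. The shMETTL14 libraries were both above the shNC libraries, but by a small step next to that of FABP7, with a log2 fold change of 0.25 (SE 0.0446). Its counts are uncertain for a named reason: FABP5 (ENSG00000164687, chr8:81280363-81284777, plus strand) has 15 pseudogenes in the annotation and overlaps an antisense RNA, LNMICC. For one of them, FABP5P7 (ENSG00000234964, chr11:59781318-59781722, minus strand), all 405 bases aligned to the FABP5 transcript without a mismatch, so reads within that stretch cannot be told apart. FABP5P7 was given 130 and 137 counts in shNC and 188 and 196 in shMETTL14 (log2 fold change 0.53, SE 0.134). These may be reads of FABP5, which carries no test, so no p is given for them. Of the other FABP5 pseudogenes, 9 had no count in any library and none reached 10 counts.

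FABP3 and FABP6 were both low, with fewer than 50 counts in every library. FABP3 (ENSG00000121769, chr1:31365625-31376850, minus strand) had 34 and 22 counts in shNC and 33 and 43 in shMETTL14. The lower shMETTL14 library fell within the range of the shNC libraries, and the log2 fold change of 0.45 had an SE of 0.325. Its level was 1.43 ± 0.394 CPM in shNC and 1.96 ± 0.388 CPM in shMETTL14.

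FABP6 (ENSG00000170231, chr5:160187367-160238735, plus strand) had 19 and 23 counts in shNC and 43 and 32 in shMETTL14. Both shMETTL14 libraries were above both shNC libraries, at 1.93 ± 0.377 against 1.08 ± 0.175 CPM, and the log2 fold change was 0.84 (SE 0.343). FABP6 overlaps an antisense gene, FABP6-AS1, and because the strand setting of the counting is not given, reads of the pair cannot be told apart. When 1 library was left out, the FABP6 value lay between 0.63 and 1.03.

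PMP2 (ENSG00000147588, chr8:81440326-81447523, minus strand) was at 0 counts in all 4 libraries, which allows up to 3 counts, or 0.151 to 0.157 CPM, in a library. Of the 5 genes, 4 passed the filter on low counts, and FABP7 passed it only through its shNC libraries. Among those 4, the difference of 3 passed the threshold and the groups of 3 did not overlap, beside 52.5% and 75.5% of all genes tested. The 3 include FABP6, whose difference did not pass with DESeq2, with 2 of the other scalings (upper quartile, library size alone), or without either shNC library or shMETTL14 library 1. Since these values chose the genes, nothing is read from that count.

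**Figure D1:**
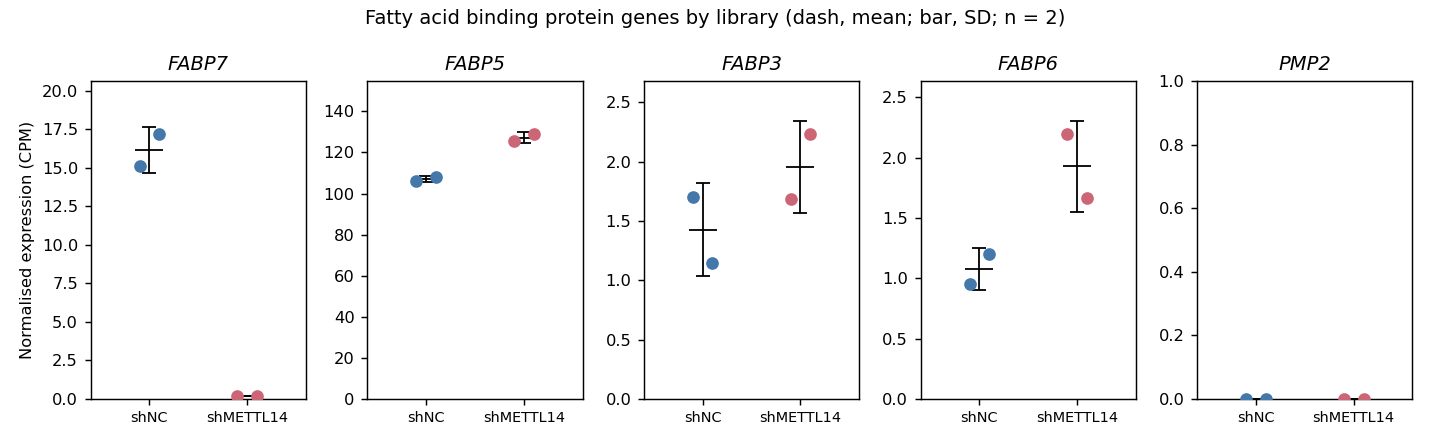
Normalised expression (CPM, linear axis from 0, 1 scale per gene) of the 5 genes in each library. Points are libraries, dashes are means and bars are the SD (n = 2). FABP7 is at 15.1 and 17.2 CPM in shNC and at 0.153 and 0.156 CPM in shMETTL14, FABP5 and FABP6 are higher in both shMETTL14 libraries, the FABP3 groups overlap and PMP2 is at 0.

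The 5 remaining FABP genes were at or near 0. FABP1, the liver type, had 2 and 1 counts in shNC and 0 in both shMETTL14 libraries. FABP4, the adipocyte type, had 2 counts in each shNC library and 3 in each shMETTL14 library. FABP2, the intestinal type, had 1 count in shMETTL14 library 2 and 0 elsewhere, and FABP9 and FABP12 were at 0 in all 4 libraries. Both groups of FABP1, FABP2 and FABP4 were at the floor, so no fold is given.

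To compare levels between genes, counts were divided by the length of each gene's annotated exons. In shNC the order was FABP5 at 51.6 CPM per kilobase, FABP7 at 5.92, FABP3 at 1.39 and FABP6 at 0.925. In shMETTL14 it was FABP5 at 61.3, FABP3 at 1.91, FABP6 at 1.66 and FABP7 at 0.0567 CPM per kilobase. FABP7 thus went from the second place to the last of the detected members. FABP3 and FABP6, the neighbours in that order, exchanged places between the shMETTL14 libraries. FABP3 held 2.56% of the FABP transcripts in library 1 and 3.30% in library 2, and FABP6 held 2.94% and 2.17%. Their levels in shMETTL14 do not differ beyond this spread.

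As a share of the transcripts of all 10 FABP genes, FABP7 made up 9.34% and 10.4% in the shNC libraries and 0.0876% and 0.0867% in the shMETTL14 libraries. FABP5 made up 86.1% ± 0.277 in shNC and 94.2% ± 0.00501 in shMETTL14. The shares sum to the whole, so a lower FABP7 share raises that of FABP5. With FABP7 left out, FABP5 held 95.2% and 95.9% in the shNC libraries and 94.3% in both shMETTL14 libraries. The summed level of the 10 genes was 126 ± 2.52 CPM in shNC and 131 ± 2.58 CPM in shMETTL14, and without FABP7 it was 110 ± 1.05 and 131 ± 2.58 CPM. Shares depend on the length used: with the mean transcript length, FABP7 made up 6.93% in shNC and 0.0595% in shMETTL14.

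**Figure D2:**
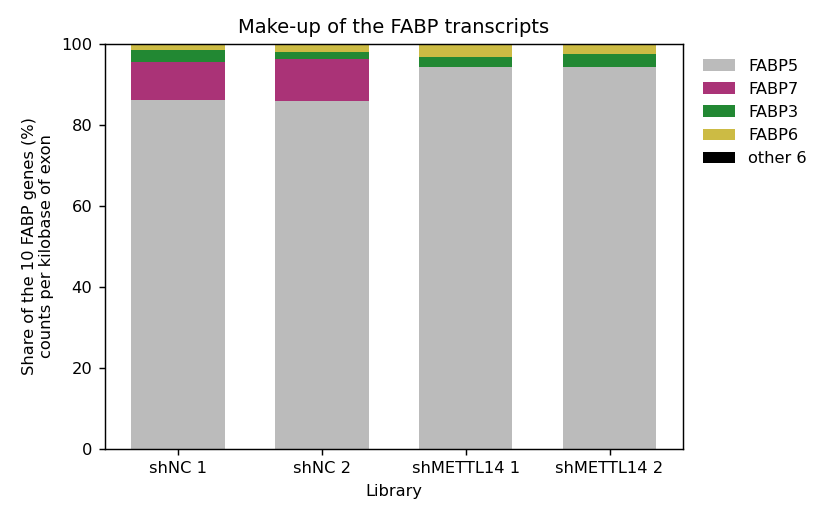
Share of each gene among the 10 FABP genes, in percent of counts per kilobase of exon, stacked for each library. FABP7 takes 9.34% and 10.4% in the shNC libraries and 0.0876% and 0.0867% in the shMETTL14 libraries, where FABP5 takes 94.2%.

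The 5 genes are relatives in sequence as well. Each main transcript has 4 exons and encodes 128 to 135 codons. Over the coding sequence, FABP7 was closest to FABP3, with 69.8% identical bases, then to PMP2 with 65.9%, FABP5 with 59.4% and FABP6 with 54.7%. The relative with the most similar coding sequence, FABP3, thus had counts that overlapped between groups. FABP7 and FABP3 overlap no other annotated gene, and both FABP7 pseudogenes had at most 1 count in a library.

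Protein-coding genes on both sides of FABP7 were lower in shMETTL14 too. SMPDL3A, which encodes a relative of acid sphingomyelinase and lies 4.975 kb downstream, had 491 and 591 counts in shNC and 212 and 204 in shMETTL14. Its log2 fold change was -1.37 with an SE of 0.110 (adjusted p = 8.1e-10, edgeR). PKIB, an inhibitor of protein kinase A that ends 53.1 kb upstream, fell from 181 and 186 counts to 37 and 34, or -2.36 on the log2 scale (SE 0.185) at an adjusted p of 5.9e-10 with edgeR. For both, the groups were far apart, but neither reached the floor.

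Farther out, SERINC1, a serine incorporator, fell by 0.44 (adjusted p = 3.4e-08, edgeR) and CLVS2, clavesin 2, fell by 0.61 (adjusted p = 3.1e-10). The 2 nearest protein-coding genes on each side of FABP7 had thus all fallen, 4 of 4, where 25.3% of all genes tested were lower. A window of 1 Mb on each side, looked at after these values were seen, added TRDN, which had too few counts to be tested, and HSF2, a heat shock factor with a log2 fold change of 0.07 (adjusted p = 0.382).

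**Figure D3:**
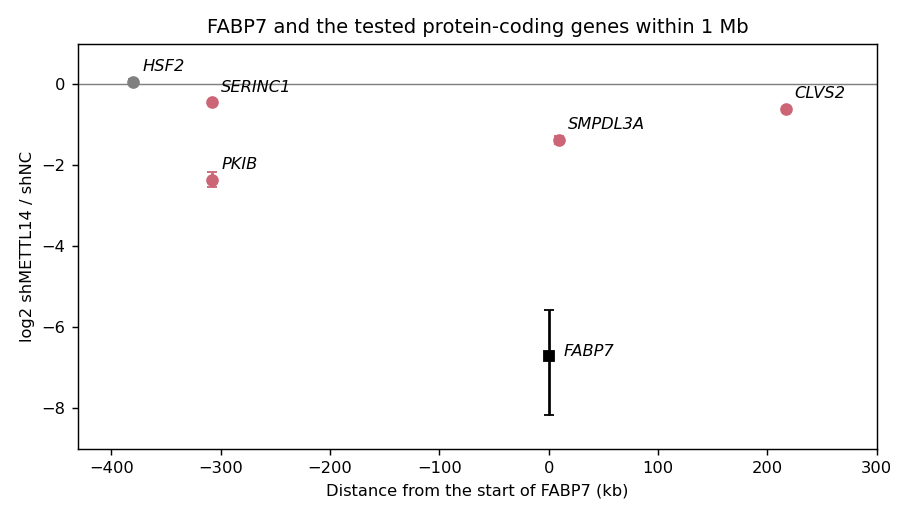
log2 ratio of shMETTL14 to shNC against the distance of each gene's start from that of FABP7, in kb. Circles are edgeR fold changes with their SE, in red where the gene fell and grey where it did not pass the test, and the square is the FABP7 ratio of summed counts with its 95% interval. PKIB (-2.36) and SMPDL3A (-1.37) lie between FABP7 and the 0 line, and HSF2 is at 0.07.

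The called neighbours of FABP3 and of FABP6 had risen, and those of FABP5 were split. Beside FABP3, ZCCHC17 rose by 0.32 (adjusted p = 6.9e-05, edgeR) and SNRNP40 by 0.36 (adjusted p = 8.6e-06), SERINC2 was at 0.10 (adjusted p = 0.681) and TINAGL1 was not tested. Beside FABP5, PAG1 rose by 1.04 (adjusted p = 7.2e-06) and ZNF704 fell by 0.47 (adjusted p = 1.7e-08), while PMP2 and FABP9 were at 0. Beside FABP6, CCNJL rose by 0.79 (adjusted p = 1.4e-06) and TTC1 by 0.17 (adjusted p = 0.0158). The TTC1 call was lost with DESeq2, with upper quartile scaling, on library size alone, and without shNC library 2 or shMETTL14 library 1. PWWP2A was at 0.09 (adjusted p = 0.319) and C1QTNF2 at 1.05 (adjusted p = 0.125). In the window of 1 Mb, 13 genes rose and 3 fell of 23 tested around FABP3, and 4 rose and 1 fell of 9 around FABP6. Around FABP5, 2 rose and 3 fell of 6. Of all genes tested, 27.2% rose and 25.3% fell. FABP5, PMP2, FABP9 and FABP4 lie together on chromosome 8, and only FABP5 among them was above the floor.

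Among 9784 tested genes with a symbol and an shNC mean of at least 10 CPM, the 5 whose levels over the 4 libraries were nearest to those of FABP7 were NDUFA4L2, VEGFD, GFRA3, FMOD and CPAMD8. Likeness was the distance between log2(CPM + 0.5) values centred on the shNC mean, and ran from 2.22 for NDUFA4L2 to 2.85 for CPAMD8. NDUFA4L2, a paralogue of a respiratory chain subunit, had 297 and 322 counts in shNC, close to those of FABP7, and 33 and 22 in shMETTL14. VEGFD, a lymphatic growth factor, had 366 and 401 against 34 and 44 counts. GFRA3, the receptor for artemin, had 856 and 853 against 99 and 96 counts. Even the nearest genes kept 8.92% to 14.0% of their shNC level, whereas FABP7 was at the floor of 3 counts. Over all 16309 genes tested, with no limit on the shNC level, 1 gene had a lower log2 fold change than FABP7. That rank uses the values that chose FABP7 and a fold set by counts at the floor, so nothing is read from it.

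**Figure D4:**
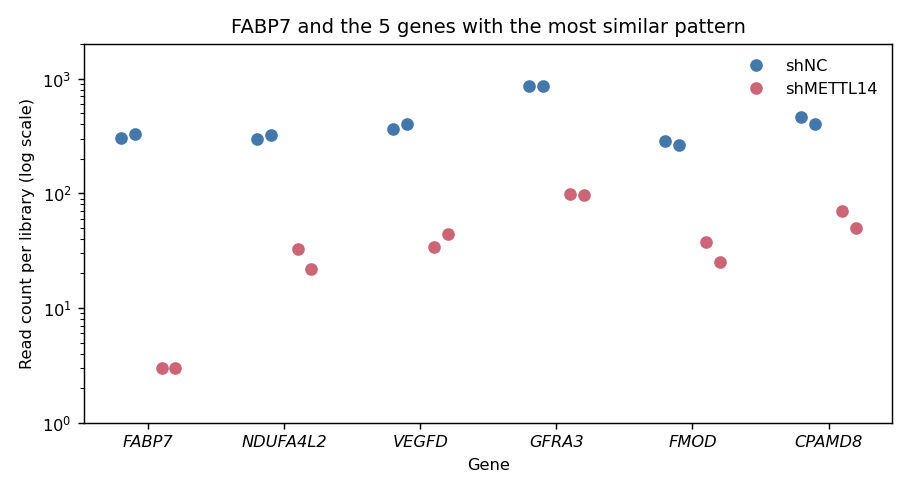
Read counts per library on a log axis for FABP7 and the 5 genes with the most similar pattern over the 4 libraries. Both FABP7 points in shMETTL14 are at 3 counts, and those of the other genes lie between 22 and 99.

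Around the members, 8 lists of related genes held 72 genes reported here, of which 55 were tested, 19 rose, 13 fell and 23 did not pass the test. Their median log2 fold change was 0.06, against -0.00095 over all genes tested, of which 27.2% rose and 25.3% fell. Among the genes named from these lists, SLC27A2, SLC27A6, ACSL6, RXRB, ACAA2, MGLL and PAX6 overlap another protein-coding gene, with which reads may have been shared, as does CD36, which was not tested.

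Of 5 retinoid carriers, which share the FABP fold, 2 were tested and both rose. CRABP1, which carries retinoic acid, rose from 142 and 147 counts to 440 and 426 (log2 fold change 1.59, SE 0.107, adjusted p = 5.4e-11, edgeR). CRABP2, the second carrier of retinoic acid, rose by 0.52 (adjusted p = 2.0e-09). RBP5 (8 and 8 counts in shNC, 6 and 2 in shMETTL14) and RBP7 (1 and 8 against 2 and 2) had too few counts to be tested, and RBP2 was at 0.

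Of the fatty acid uptake genes, 4 of 7 tested rose and 0 fell, with a median of 0.75. The 3 that did not pass all had log2 fold changes below 0, so the list was split. SLC27A2, an acyl-CoA synthetase of the transport family, rose from 6 and 9 counts to 44 and 51 (log2 fold change 2.65, SE 0.402, adjusted p = 8.9e-06). MFSD2A, which imports lysolipids carrying docosahexaenoic acid, rose from 81 and 83 counts to 285 and 228 (1.65, SE 0.148, adjusted p = 4.8e-09). SLC27A6 rose by 1.24 (adjusted p = 0.00022) and SLC27A4 by 0.75 (adjusted p = 1.7e-07). CD36 and CAV1 were not tested.

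Of 6 tested genes that activate or bind acyl-CoA, 2 rose and 1 fell, with a median of 0.08. DBI, the acyl-CoA binding protein, rose by 0.44 (adjusted p = 9.0e-08), and its relative ACBD7 fell by 0.53 (adjusted p = 1.8e-05). ACSL6, an acyl-CoA synthetase of the nervous system, had 28 and 9 counts in shNC and 35 and 40 in shMETTL14 (1.03, adjusted p = 0.0352), and did not pass with DESeq2 (adjusted p = 0.135) or without shNC library 2 (0.46) or shMETTL14 library 2 (0.93).

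The nuclear receptors that fatty acids reach split by gene. PPARG rose from 31 and 38 counts to 121 and 142 (log2 fold change 1.94, SE 0.213, adjusted p = 1.1e-07). PPARA fell from 386 and 365 counts to 129 and 107 (-1.66, SE 0.120, adjusted p = 1.6e-10). PPARD, the receptor served by FABP5, fell by 0.44 (adjusted p = 7.9e-06), and the partner receptors RXRA and RXRB fell by 0.84 and 0.32 (adjusted p = 9.7e-08 and 0.000291). Of 5 tested, 1 had risen and 4 had fallen.

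Among 4 tested PPAR target genes, 3 rose and 0 fell, with a median of 0.49, and the fourth, PDK4, a brake on glucose oxidation, had 16 and 14 counts in shNC and 8 and 6 in shMETTL14 (log2 fold change -1.08, adjusted p = 0.0829). ANGPTL4, a lipase inhibitor, rose from 10 and 11 counts to 54 and 46 (2.25, SE 0.363, adjusted p = 2.0e-05). CPT1A, the gate of mitochondrial fatty acid oxidation, rose by 0.72 (adjusted p = 2.3e-11) and PLIN2, a lipid droplet coat protein, by 0.26 (adjusted p = 0.000359).

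The oxidation list held 17 tested genes, of which 7 rose, 3 fell and 7 did not pass, with a median of 0.07. In place of these 10, 4 passed with DESeq2 and 6 without shNC library 1. Besides CPT1A, ACAA2 rose by 0.34 (adjusted p = 5.9e-06), SLC25A20, the carnitine carrier, by 0.39 (adjusted p = 0.0426, lost in 8 of 11 alternative analyses, among them those without either shNC library or shMETTL14 library 1), and ACADS fell by 0.55 (adjusted p = 0.000518). Of 10 lipid droplet genes tested, 1 rose (PLIN2) and 2 fell, with a median of 0.05. DGAT2, which makes triglyceride, fell by 0.87 (adjusted p = 3.4e-06) and MGLL, a lipase, by 0.64 (adjusted p = 0.0281, 0.14 with DESeq2 and not past the threshold without shNC library 2 or shMETTL14 library 1).

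Of 8 regulators of FABP7 known from glia, 6 were tested, 1 rose and 3 fell, with a median of -0.17. NFIX, a nuclear factor I protein, fell from 2528 and 2239 counts to 1323 and 1290 (log2 fold change -0.86, SE 0.0505, adjusted p = 6.1e-12). NFIA fell by 0.22 (adjusted p = 0.00036). NFIB rose by 0.15 (adjusted p = 0.00627, edgeR), a call lost without shMETTL14 library 2, with upper quartile scaling and on library size alone. RBPJ fell by 0.12 (adjusted p = 0.0253, edgeR). The RBPJ call was lost with DESeq2, with no filter on counts, and without shNC library 2 or shMETTL14 library 1. PAX6 had 5 to 14 counts in a library and did not pass (adjusted p = 0.276), NOTCH1 was not tested and POU3F2 was at 0 in all 4 libraries.

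**Figure D5:**
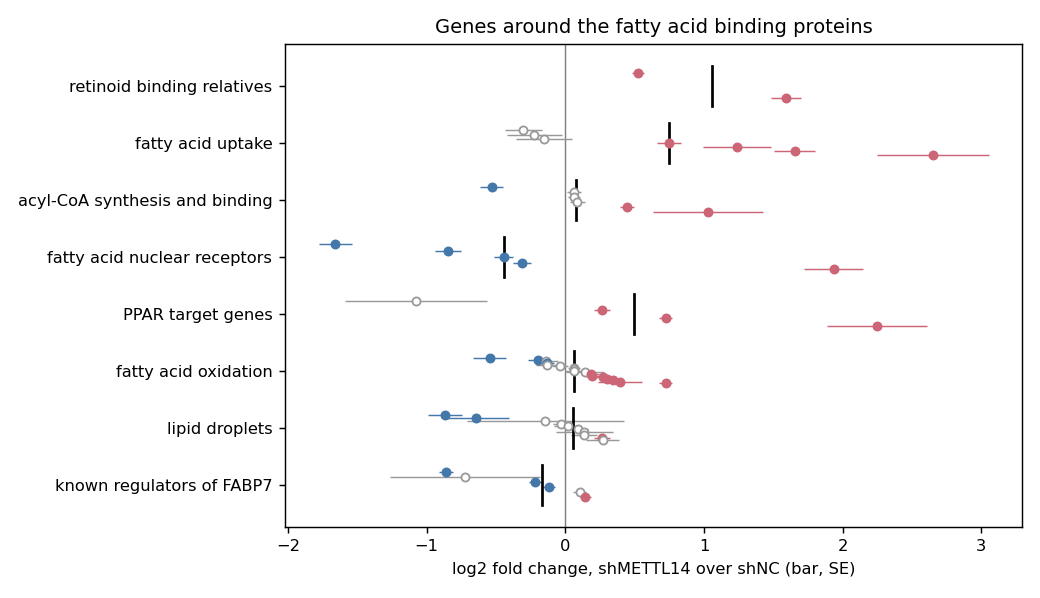
log2 fold changes of the tested genes in the 8 lists, 1 point per gene with its SE. Red points rose, blue points fell, open grey points did not pass the test and the black line is the list median. The retinoid relatives (0.52 and 1.59) lie to the right, and the nuclear receptors (median -0.44) lie to the left except PPARG. The uptake genes (median 0.75) are split, with the 4 that rose to the right and the 3 that did not pass to the left.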

How the data were processed

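The authors deposited raw read counts per Ensembl gene, in whole numbers. The submitters' processing notes name HISAT2 2.1.0, StringTie 1.3.6, HTSeq 0.13.5, edgeR and GRCh38, and the annotation release and strand setting are not given in the sources used here. Lines that name no gene (19.1% to 19.9% of counts) were left out, and 0 other sample columns were present. Of the gene IDs, 42020 had a symbol and 58453 were in GENCODE 29. Counts were tested with edgeR 4.0.16 in R 4.3.3 (quasi-likelihood F-test, TMM scaling, filterByExpr with a minimum count of 10 and total of 15, group as the only term, Benjamini-Hochberg adjustment over all 16309 genes, threshold 0.05). The procedure was tested on simulated data. DESeq2 1.42.0, other scalings and filters, a replicate block and leaving out each library were tried. SE came from the F statistic and FABP7's interval was an exact binomial one. An exact two-sided permutation test of 2 against 2 libraries cannot go below p = 0.333, so calls rest on the variance shared across genes. The members and lists were chosen with earlier results of these data known. Some list genes are not reported here and were left out of the list counts and medians. The genes named were the FABP genes, METTL14, per list up to 4 called genes with the largest change plus genes that define a step (such as RXRB), the 2 nearest coding genes per side, pseudogenes with 10 counts or more, and the 5 genes most like FABP7. HSF2, TRDN, PDK4 and other list genes that did not pass were named after their values were seen. Promoters came from RefSeq.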

Additional observations from a re-analysis of the deposited data

How the results depend on the processing

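Replicate numbers were shared by the groups, but same-numbered libraries did not deviate together (Pearson 0.00483, Spearman 0.0233 over genes). Over the alternatives, the number of genes called was 8561 by the report's fit, 8926 with the replicate block, 6022 with DESeq2 and 7287 to 7458 without 1 library. The FABP7 log2 ratio of summed counts (-6.70) was -6.80 to -6.61 without 1 library. FABP5 was 0.18 when scaled by the upper quartile, 0.20 on library size alone and 0.23 to 0.27 without 1 library. FABP3 was 0.20 to 0.76 and FABP6 0.63 to 1.03 without 1 library, and METTL14 -1.31 to -1.21. The mean transcript length put FABP5 at 90.3% of FABP transcripts in shNC and 96.2% in shMETTL14, and FABP7 at 6.93% and 0.0595%. Adding pseudogene reads put FABP5 at 86.9% and 94.6%, and FABP7 at 0.108% in shMETTL14. Pathway genes called numbered 32, 23 with DESeq2, 33 with the replicate block and 26 to 30 without 1 library, called neighbours of all members 9 to 10, and those of FABP7 4 throughout. HSF2 turned to -0.0020 with upper quartile scaling, SERINC2 ranged from -0.066 to 0.30 without 1 library, and neither was called. Over 43 other genes with a fold change in the text, 436 of 469 alternative values kept direction and side of the threshold, 31 lost the call and 2 turned. Of the list counts, only that of the oxidation genes moved by over 1.5 times (4 with DESeq2, 6 without shNC library 1, from 10). The cause of these shifts was not tested. Counts at or below 3 limit what can be said of 6 of the 10 FABP genes and of FABP7 in shMETTL14.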
